A study of Mus musculus with 67 samples.

Results

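The diet response of wild-type (WT) mouse liver was compared between 1 day and 8 days of feeding, gene by gene, using all 30 samples whose title begins with WT, of 67 samples in the series. The remaining 37 samples are livers of Sestrin double-knockout (DKO) mice. They were 8 and 18 mice on control and leucine-free food for 1 day, and 5 and 6 for 8 days. The DKO samples enter only a closing comparison and 1 alternative fit, of all 67 libraries, against which the WT calls were checked. Each WT sample is whole liver from a separately numbered mouse fed either control food or leucine-free food. The groups held 7 mice on control food for 1 day (labelled 24 hours), 12 on leucine-free food for 1 day, 5 on control food for 8 days and 6 on leucine-free food for 8 days. All 30 WT mice share the wild-type genotype, and the labels used here give no age, collection time or sequencing batch for them. RNA was total RNA of flash-frozen tissue, read through strand-specific libraries, and nothing beyond the mouse number says how the animals were housed or grouped.

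Leucine is an essential amino acid, so a mouse must take it from food. In liver, amino acid shortage is sensed by the GCN2 kinase, which favours translation of the transcription factor ATF4. It is also sensed by the Sestrin proteins, which act through the GATOR proteins to restrain the growth kinase mTORC1. The SREBP transcription factors, which switch on fatty acid and cholesterol synthesis, act downstream of insulin and mTORC1. A diet response can therefore fade, persist or appear only later, and these courses are distinguished here by the test of the difference between the days.

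Total counts ran from 22814668 to 56916009 per library. The 12 hepatocyte markers (among them Alb, Apoa1 and Cps1) summed to between 98004 and 153043 CPM (counts divided by scaled library size) in every WT library, as a liver sample should. Xist had at least 9456 counts in each of the 30 libraries and 4 Y-linked genes together had at most 1, as in female mice. Leucine-free day 1 mice 11 and 12 lay furthest from their group (mean squared residual 0.482 and 0.453), and control day 1 mouse 4 had low lipid synthesis genes. Both sets of libraries were therefore left out in turn. Results that changed are named below, and the named genes affected are listed in the last paragraph. Each day's diet response was measured against control mice of the same day, and any batch that followed the day cannot be told apart from it.

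Of 16079 genes with enough counts to test, 3138 responded to leucine-free food at day 1 (19.5% called at an adjusted p under 0.05, edgeR quasi-likelihood test), 1420 of them higher (8.83%) and 1718 lower (10.7%). At day 8, 800 genes responded (4.98%), 401 higher (2.49%) and 399 lower (2.48%). The day 8 groups are smaller, and the median standard error (SE) of a log2 fold change was 0.141 at day 1 and 0.179 at day 8. A gene absent from the day 8 calls is therefore not shown to have lost its response. The direct test, the day 8 response minus the day 1 response, called 185 genes (1.15%), 100 with a positive difference (0.622%) and 85 with a negative one (0.529%). Its median SE was 0.228, and 2569 genes had an unadjusted p under 0.05. The genes nearest the threshold were Slco1a1 and Taldo1 inside it (both adjusted p 0.0492) and Acly and Rce1 outside it (both 0.0508).

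With both days and the difference tested, 106 genes had a transient response, meaning called at day 1, not called at day 8, and with a called difference of the opposite sign. This was 33 genes higher at day 1 and 73 lower (0.205% and 0.454% of genes tested). A sustained response, called at both days in the same direction with no called difference, was found in 351 genes, 212 higher and 139 lower (1.32% and 0.864%). A late response, called at day 8 and not at day 1 with a called difference, was found in 52 genes, 12 higher and 40 lower (0.0746% and 0.249%). A further 10 genes were called at both days with a smaller response at day 8 (fading), 2 higher and 8 lower (0.0124% and 0.0498%). Another 9 were called at both days in opposite directions (switching), 5 higher and 4 lower at day 1 (0.0311% and 0.0249%). A called difference alone was found for 8 genes, 3 positive and 5 negative (0.0187% and 0.0311%). With single libraries left out, the number of transient genes ran from 44 to 167, of sustained genes from 253 to 365, of late genes from 13 to 61 and of genes called for the difference from 62 to 267, each lowest without control day 8 mouse 2 except the sustained genes. No gene was called at both days with a larger response at day 8. The time course of 2662 genes called at day 1 is undetermined, since their difference was not called (1168 higher, 7.26%, and 1494 lower, 9.29%). The same holds for 378 genes called at day 8 (171 higher, 1.06%, and 207 lower, 1.29%).

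Both days leaned the same way more often than not, and they share no library. Of the 1420 genes higher at day 1, 84.9% were also above 0 at day 8, against 50.9% of all genes, and 214 (15.1%) were called higher again. Of the 401 genes higher at day 8, these 214 were 53.4%. Among the 1718 genes lower at day 1, 78.8% were below 0 at day 8 and 147 (8.56%) were called lower, which is 36.8% of the 399 genes lower at day 8. The median log2 fold change of the day 1 genes went from 0.41 to 0.21 for those higher and from -0.46 to -0.16 for those lower. Over all 16079 genes, Pearson's r between the responses was 0.316 and Spearman's rho 0.287, across genes that are not independent replicates.

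**Figure D1:**
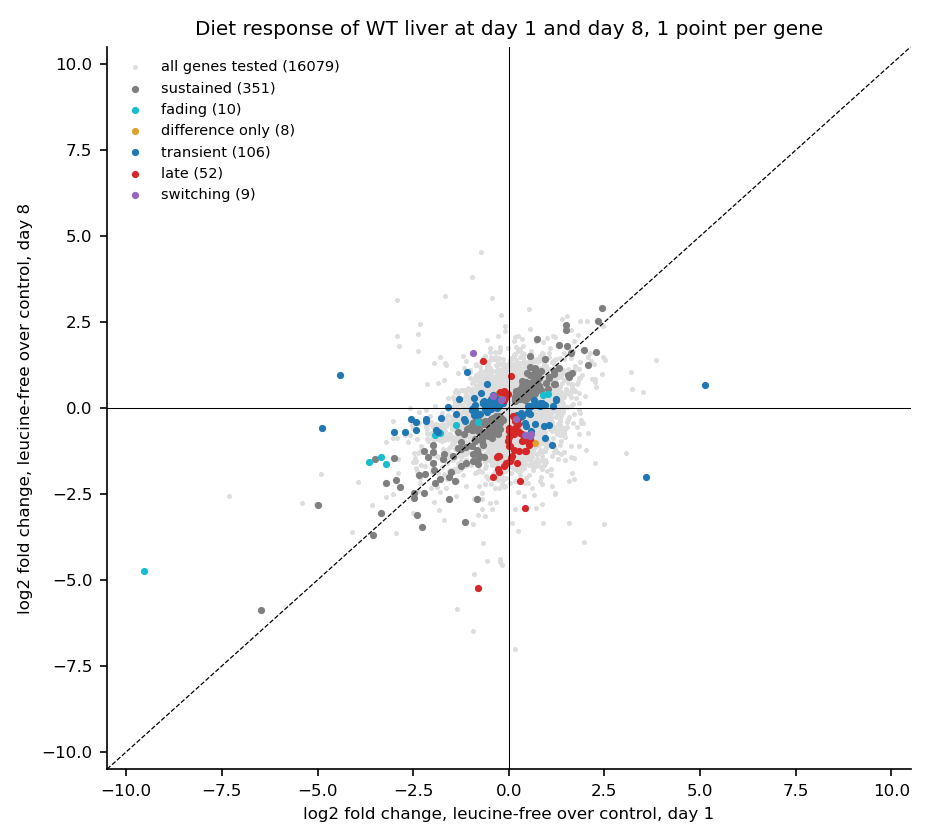
Log2 fold change of leucine-free over control livers at day 1 (x axis) and day 8 (y axis), 1 point per gene, coloured by class, with a dashed line where both are equal. The 351 sustained genes lie on both sides of the line. Their differences, day 8 minus day 1, run from -0.81 to 1.25 for those higher and from -2.16 to 2.18 for those lower. None of these differences is called. The 106 transient genes run from -2.01 to 1.04 on the y axis, where none is called, and the 52 late genes from -0.81 to 0.55 on the x axis, where none is called.

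The difference between the days is the change over time in leucine-free livers minus the change over time in control livers, so each of these was also tested. Control livers differed between day 8 and day 1 in 658 genes (4.09%), 231 higher and 427 lower (1.44% and 2.66%). Leucine-free livers differed in 1161 genes (7.22%), 556 higher and 605 lower (3.46% and 3.76%). These comparisons use the same libraries as the difference, so their values are given side by side and not as support. For the 73 genes transiently lower, the median change over time was -0.41 (log2) in control livers and 0.31 in leucine-free livers. For the 33 genes transiently higher, it was 0.52 in control livers and -0.26 in leucine-free livers. For the 40 late lower genes, it was 0.60 and -0.59. Opposite placement of the diets is in part fixed by the choice of these genes. By size, the control livers had the larger change over time in 119 of the 185 genes and the leucine-free livers in 66.

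**Figure D2:**
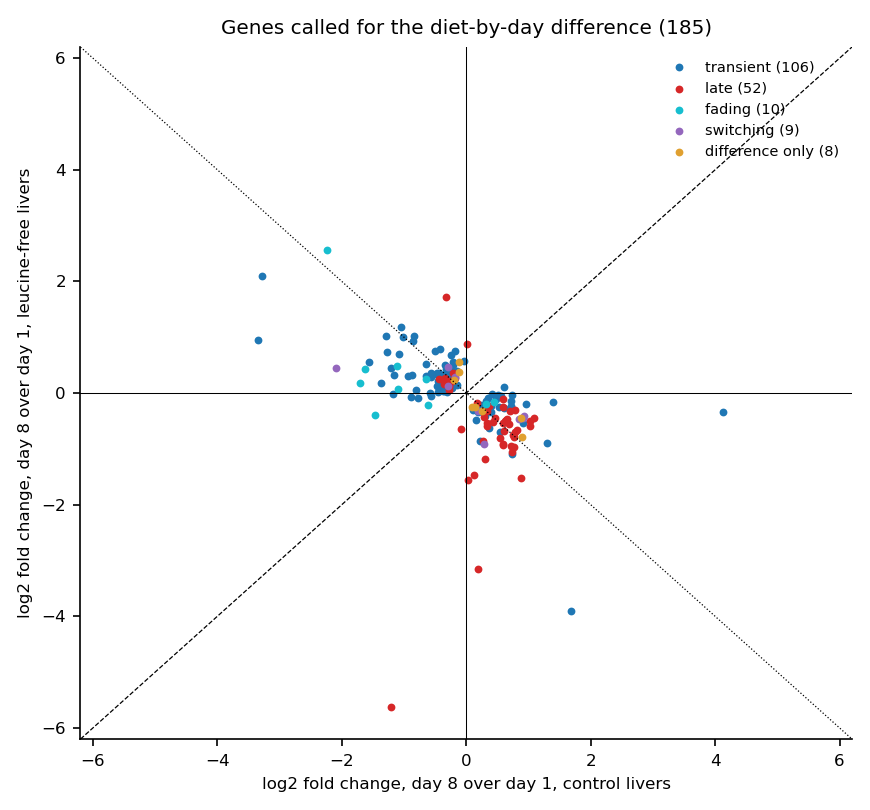
Log2 fold change of day 8 over day 1 in control livers (x axis) and in leucine-free livers (y axis) for the 185 genes called for the diet-by-day difference, coloured by class. The points lie off the dashed line of equal change because a called difference requires it, and many lie near the dotted line where both diet groups changed by the same amount in opposite directions.

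Cholesterol synthesis genes fell at day 1, where 10.7% of all genes tested fell. Of 25 measured genes of the pathway, 24 fell at day 1 and none passed the test at day 8 (2 at an unadjusted p under 0.05, and none in DESeq2), where the median log2 fold change was -0.47 against -1.89 at day 1 (medians of all genes tested 0.02 and 0.005). The difference was positive in 25 of 25 genes, against 50.3% of all genes, and was called in 4, Pmvk, Lss, Acat2 and Nsdhl, which are transient. The time course of 20 of the 25 is undetermined. Lss (chr10:76531588-76557138), lanosterol synthase, closes the ring system of sterols. Its level in control livers at day 1 was 62.7 CPM at the lowest, 171 at the median and 275 at the highest, and in leucine-free livers it was 20.1, 29.5 and 59.1. At day 8, the 5 control livers had 116, 90.5, 115, 84.8 and 55.2 CPM and the leucine-free livers 43.6 at the lowest, 56.2 at the median and 126 at the highest. The diet groups did not overlap at day 1 and overlapped at day 8. Over all genes tested, the diets did not overlap in any library in 2.21% at day 1 and in 6.46% at day 8. Smaller groups, as at day 8, separate more easily, so here and below overlap is not compared like for like between the days. Lss fell by 2.43 on the log2 scale at day 1 (SE 0.25, adjusted p 7.03e-08) and was -0.40 ± 0.32 (SE) at day 8, a difference of 2.03 ± 0.42 (adjusted p 0.0161).

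Pmvk, the phosphomevalonate kinase of the same pathway, gave a difference of 2.23 ± 0.45 (SE, adjusted p 0.0156) and Acat2, cytosolic acetoacetyl-CoA thiolase, 1.49 ± 0.26 (adjusted p 0.00783). Calls for Lss, Pmvk and Acat2 held in each of the 23 alternatives run at the same threshold. Nsdhl, a sterol dehydrogenase, lost its call in 6 of the 23 (adjusted p 0.0669 to 0.0821 in those). Sqle, squalene epoxidase, had a difference of 2.16 ± 0.81 that was not called (adjusted p 0.171).

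The change over time was called in different diet groups for the cholesterol and the fatty acid genes. Leucine-free livers were higher at day 8 than at day 1 in 6 cholesterol genes (median of the 25 genes 0.78), and control livers were lower in 1 (median -0.68). For the 22 lipogenesis genes, control livers were lower at day 8 in 7 (median -0.85) and leucine-free livers passed the test in none (median 0.19). Whether the lists differ in this respect was not tested.

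Lipogenesis genes fell at day 1 and some stayed low. Of 22 measured, 19 fell at day 1 and 7 at day 8 (10.7% and 2.48% of all genes). Median log2 fold changes were -1.80 and -0.88, and 6 genes had a called positive difference (0.622% of all genes). Acaca, Slc25a1 and Gpam were transient, Acacb, Acss2 and Elovl6 were fading, and Scd1, Fasn, Acly and Elovl5 were sustained. The day 8 response of Acaca, not called in the main fit, was called in 12 of 24 alternatives. It ran from -0.82 to -0.51 (log2) over the 24. The difference lost its call in 8 of 23 alternatives for Acaca (adjusted p up to 0.111). For Acss2 it was lost in 8 (up to 0.0832) and for Elovl6 in 6 (up to 0.0688). Acacb (chr5:114146535-114250761), acetyl-CoA carboxylase 2, makes the malonyl-CoA that holds back fatty acid oxidation. Control livers at day 1 had 153, 379 and 567 CPM at the lowest, median and highest, and leucine-free livers 22.3, 39.5 and 65.1. Among the day 8 mice, control livers had 167, 123, 263, 120 and 223 CPM and leucine-free livers 38.6, 49.9 and 85.7 at the lowest, median and highest. The diets did not overlap at either day, and between the days the median went from 379 to 167 CPM in control and from 39.5 to 49.9 CPM in leucine-free livers. The response was -3.21 ± 0.23 at day 1 and -1.62 ± 0.29 at day 8, a difference of 1.59 ± 0.37 (SE, adjusted p 0.0272), which lost its call in 5 of 23 alternatives (adjusted p up to 0.0734).

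Scd1 and Fasn show the other end of the list. Scd1, stearoyl-CoA desaturase, had medians of 11098 CPM in control and 221 in leucine-free livers at day 1, and of 6134 and 669 at day 8. Its ranges met at day 8, where control livers ran from 1437 to 9948 CPM and leucine-free livers from 79.2 to 1895. Scd1 fell by 5.00 ± 0.55 at day 1 and by 2.82 ± 0.68 at day 8 on the log2 scale, and its difference of 2.18 ± 0.85 had a 95% interval of 0.45 to 3.92 (adjusted p 0.188). For Fasn, which builds palmitate, the day 1 response was -3.49 ± 0.33, the day 8 response -1.50 ± 0.42 and the difference 2.00 ± 0.54 (adjusted p 0.0606). A sustained call here thus means that a smaller response at day 8 was not established, and Fasn's day 8 call itself was lost when any 1 of 6 day 8 libraries was left out (adjusted p up to 0.182).

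Without control day 1 mouse 4, cholesterol genes called for the difference numbered 6 in place of 4, and lipogenesis genes 8 in place of 6. With the day 1 groups cut to the sizes of day 8, they numbered 11 and 1. With no filter on low counts, 1 lipogenesis gene was called, and none was called without control day 8 mouse 2 or 4 or leucine-free day 8 mouse 1 or 3. In each of these fits every called gene of both lists had a positive difference.

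Pgd, a phosphogluconate dehydrogenase that yields NADPH in the pentose phosphate pathway, was fading, with -1.94 ± 0.14 at day 1, -0.77 ± 0.18 at day 8 and a difference of 1.16 ± 0.23 (adjusted p 0.0139). Tkt, transketolase of the same pathway, was transient, with -0.96 ± 0.10 at day 1, -0.04 ± 0.13 at day 8 and a difference of 0.92 ± 0.16 (adjusted p 0.0075). Both belong to the 18 measured antioxidant and NRF2 genes, of which 9 fell at day 1, 3 fell and 1 rose at day 8, and 4 had a called positive difference. Taldo1 and Gstm3 were the others of these 4. Over all genes, 10.7% fell at day 1, 2.48% fell and 2.49% rose at day 8, and 0.622% had a called positive difference.

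Ptgr1 and Tagln were among the transiently lower genes outside the lists. Ptgr1 (chr4:58965439-58987119), a reductase of prostaglandins and lipid aldehydes, had 4.27, 6.76 and 7.27 CPM (lowest, median, highest) in control livers at day 1 and 0.714, 1.50 and 2.09 in leucine-free livers. After 8 days, control livers had 3.51, 3.11, 4.18, 3.12 and 3.66 CPM and leucine-free livers 1.34, 2.74 and 4.38. The diets were apart at day 1 and overlapped at day 8. Its difference was 1.85 ± 0.30 (SE, adjusted p 0.00365). Tagln, transgelin, an actin-binding protein of smooth muscle, had a difference of 1.64 ± 0.27 (adjusted p 0.00381). Of the 12 stellate cell and fibroblast markers, 1 rose and 1 fell at day 1, near the shares of all genes (8.83% and 10.7%). None of the 12 had a called difference (4 at an unadjusted p under 0.05, 1 in DESeq2). Their summed level was 293 to 479 CPM in control and 254 to 566 in leucine-free livers at day 1, and 471 to 607 and 363 to 504 at day 8. The part of these cells in the Tagln result was not tested, and in whole tissue fewer cells of a type and less RNA per cell cannot be told apart.

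**Figure D3:**
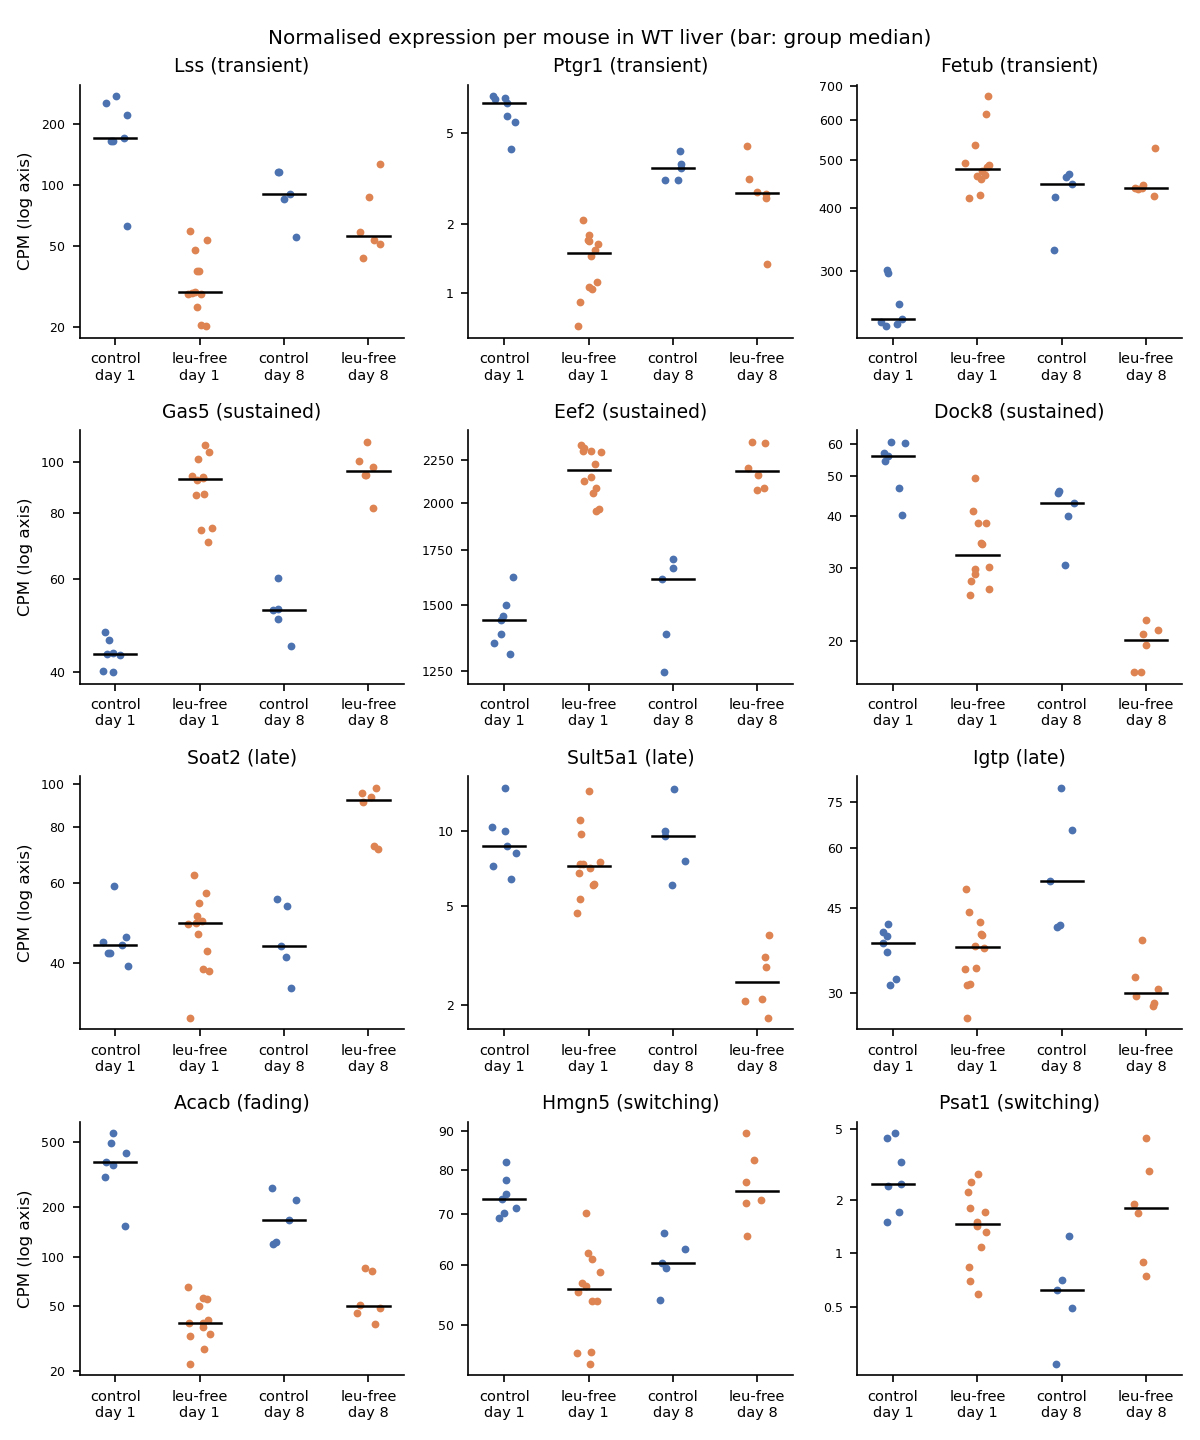
CPM (log axes, which differ between panels) of 12 genes in every WT mouse of the 4 groups, with the group median as a bar. Lss, Ptgr1 and Fetub separate the diets at day 1 and overlap at day 8, and Gas5, Eef2 and Dock8 show a response at both days. Soat2, Sult5a1 and Igtp separate the diets at day 8 only, where the groups are smaller. Of all genes tested, 2.21% separate the diets at day 1 and 6.46% at day 8. Hmgn5 and Psat1 are lower on leucine-free food at day 1 and higher at day 8.

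The integrated stress response genes include many known ATF4 targets. Of 37 measured integrated stress response genes, 3 rose and 7 fell at day 1, against 8.83% and 10.7% of all genes tested. The number that rose is thus near the share over all genes. At day 8, 5 rose and none fell (2.49% and 2.48% of all genes). A called difference was found in 7, all positive (0.622% of all genes). The median log2 fold change went from -0.16 to 0.32. Gars (chr6:55038007-55079500), glycyl-tRNA synthetase, had 52.8, 57.2 and 59.1 CPM (lowest, median, highest) in control livers at day 1 and 30.6, 36.8 and 49.4 in leucine-free livers. In the day 8 groups, control livers had 46.7, 39.0, 45.8, 39.2 and 38.7 CPM, and leucine-free livers 41.8, 48.9 and 51.4. The diets did not overlap at day 1, where leucine-free livers were lower, and overlapped at day 8. Its response was -0.56 ± 0.07 at day 1 and 0.17 ± 0.10 at day 8, with a difference of 0.73 ± 0.12 (SE, adjusted p 0.00381).

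The other transient genes of this list were Psph, phosphoserine phosphatase (difference 0.96 ± 0.17, adjusted p 0.00783), Nars, asparaginyl-tRNA synthetase (0.53 ± 0.11, adjusted p 0.0179), and Mthfd2, a mitochondrial folate enzyme (1.56 ± 0.34, adjusted p 0.0205). Gars, Psph and Nars kept their calls in each of the 23 alternatives, and Mthfd2 lost it only in the fit of all 67 libraries (adjusted p 0.0553). Sars, seryl-tRNA synthetase, and Aldh1l2, a mitochondrial folate dehydrogenase, were late and higher. Aldh1l2 lost its day 8 call in 10 alternatives (adjusted p up to 0.113) and its difference in 10 (up to 0.0891). The 20 cytosolic aminoacyl-tRNA synthetases were a list chosen after the values were seen. In this list 12 fell at day 1 and 2 rose at day 8 (10.7% and 2.49% of all genes). Of these 20, 5 had a called difference, all positive (Gars, Nars, Mars, Sars and Vars), and 2 without control day 8 mouse 2. Other classical targets were not called at either day. Asns, asparagine synthetase, was -0.23 ± 0.59 at day 1 and 1.70 ± 0.81 at day 8 (difference 1.94 ± 0.99, adjusted p 0.343). Trib3, a pseudokinase, was 0.84 ± 0.40 and 1.41 ± 0.51, and Fgf21, a secreted fasting hormone, 1.33 ± 0.60 and 1.46 ± 0.75.

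Proteasome subunits were another list chosen after the values were seen. They fell at day 1 in 29 of 31 genes and at day 8 in 1, Psmb7 (10.7% and 2.48% of all genes). The fall was small, with a median log2 fold change of -0.30 at day 1 and -0.01 at day 8, and the difference was positive in 31 of 31 genes. It was called in 6, Psmc1, Psmc3, Psmc4, Psmb4, Psmb5 and Psmb6. Psmb6, a catalytic subunit, was -0.27 ± 0.06 at day 1 and 0.12 ± 0.07 at day 8, with a difference of 0.38 ± 0.09 (SE, adjusted p 0.0321). Psmc1, an ATPase of the cap, had a difference of 0.42 ± 0.10 (adjusted p 0.0236). Control livers were lower at day 8 than at day 1 in 10 of the 31 genes and leucine-free livers in 1, with 2 higher. None of the 31 was called for the difference with no filter on low counts, without control day 8 mouse 5 or without leucine-free day 8 mouse 1, and 1 was called without control day 8 mouse 2 or 4 or leucine-free day 8 mouse 3.

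Transiently higher genes included secreted liver proteins, transporters and a cytochrome. Fetub (chr16:22918334-22939778), fetuin-B, a secreted protease inhibitor, had 232, 240 and 301 CPM (lowest, median, highest) in control livers at day 1 and 420, 479 and 670 in leucine-free livers. At day 8, control livers had 447, 461, 421, 467 and 330 CPM and leucine-free livers 423, 439 and 527. Control livers at day 8 thus lay above every control liver at day 1 and overlapped the leucine-free livers. The response was 0.96 ± 0.09 at day 1 and 0.09 ± 0.11 at day 8, with a difference of -0.87 ± 0.14 (SE, adjusted p 0.00365). In control livers Fetub was higher at day 8 by 0.73 (adjusted p 0.0002), and in leucine-free livers the change was -0.14 (adjusted p 0.356).

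Hrg, histidine-rich glycoprotein, a neighbour of Fetub on chromosome 16, showed the other course. Its response was 0.80 ± 0.07 at day 1 and 0.16 ± 0.09 at day 8, with a difference of -0.64 ± 0.12 (adjusted p 0.00783), and it was in leucine-free livers that it was lower at day 8, by -0.49 (adjusted p 0.00028). Slc27a2, which activates and imports very long chain fatty acids, had a difference of -0.99 ± 0.20 (adjusted p 0.0139) and Cyp2e1, a cytochrome P450 induced by fasting, -0.96 ± 0.21 (adjusted p 0.0213). Ifnar2, a chain of the type I interferon receptor, was 0.74 ± 0.08 at day 1 and 0.10 ± 0.10 at day 8, with a difference of -0.64 ± 0.13 (adjusted p 0.0139). Fetub, Hrg, Slc27a2, Ifnar2 and Vkorc1, the vitamin K reductase, kept their calls in each of the 23 alternatives, whereas Cyp2e1 lost its call without control day 8 mouse 2 (adjusted p 0.057).

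The largest transient rises varied widely between mice. Mt2, a metallothionein that binds zinc, had 3.59 to 11.2 CPM in control livers at day 1 and 20.1, 90.0 and 1039 CPM (lowest, median, highest) in leucine-free livers. Among the day 8 mice, control livers had 14.4, 145, 88.7, 179 and 67.2 CPM, so that every one lay above the day 1 controls, and leucine-free livers had 69.5, 127 and 281. Its response was 5.14 ± 0.82 at day 1 and 0.66 ± 0.80 at day 8, and the difference of -4.48 ± 1.07 (adjusted p 0.0349) lost its call in 12 of 23 alternatives (adjusted p up to 0.162). Its neighbour Mt1 had a difference of -3.05 ± 0.80 that was not called (adjusted p 0.0555). Derl3, which takes part in clearing misfolded proteins from the endoplasmic reticulum, ran from 0.544 to 75.0 CPM in leucine-free livers at day 1 and overlapped the controls. Its difference of -5.58 ± 1.30 (adjusted p 0.0293) lost its call in 7 of 23 alternatives (adjusted p up to 0.06).

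The 212 sustained higher genes included 28 of the machinery of protein synthesis. Of 62 measured ribosomal proteins and elongation factors, 30 rose at day 1 and 51 at day 8, and none fell at either day. The shares of all genes that rose were 8.83% and 2.49%. Of these, 28 were sustained, with a median log2 fold change over the 62 genes of 0.18 at day 1 and 0.40 at day 8. Many ribosomal protein genes have pseudogene copies in the genome, so their counts are less certain than those of other genes. Eef2 (chr10:81176631-81182498), the elongation factor that moves the ribosome along its message, had 1311, 1441 and 1626 CPM (lowest, median, highest) in control livers at day 1 and 1952, 2188 and 2348 in leucine-free livers. After 8 days, control livers had 1708, 1614, 1668, 1386 and 1245 CPM and leucine-free livers 2069, 2183 and 2370. Every leucine-free liver lay above every control liver of its day. The response was 0.60 ± 0.07 at day 1 and 0.53 ± 0.08 at day 8, and the 95% interval of the difference was -0.28 to 0.15.

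Gas5, a non-coding RNA that hosts small nucleolar RNAs and accumulates when translation slows, gave the smallest p of the sustained class. It had medians of 43.2 CPM in control and 92.9 in leucine-free livers at day 1, and of 52.4 and 96.3 at day 8, with no overlap between the diets at either day. Its response was 1.05 ± 0.08 at day 1 (adjusted p 8.69e-11) and 0.89 ± 0.10 at day 8 (adjusted p 4.76e-06), and the 95% interval of the difference was -0.42 to 0.08. Genes whose diets do not overlap in any library were 2.21% of genes tested at day 1 and 6.46% at day 8. Naca, a chaperone of nascent chains, was 0.39 ± 0.05 and 0.49 ± 0.07. Agt, angiotensinogen, was 0.75 ± 0.10 and 0.79 ± 0.12, and Chchd10, a mitochondrial protein, 0.80 ± 0.11 and 0.89 ± 0.14. Nrbp2, a pseudokinase, held its response of 1.05 ± 0.10 and 0.88 ± 0.12 while it was higher at day 8 in both diets, by 0.85 in control and 0.68 in leucine-free livers. Of 15 xenobiotic metabolism genes, 8 rose and 1 fell at day 1 (8.83% and 10.7% of all genes). At day 8, 5 rose (2.49% of all genes), and Nr1i2, Nr1i3, Por and Cyp3a25 were sustained.

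Sustained lower genes included immune, steroid and cell division genes. Dock8 (chr19:24999534-25202432), an exchange factor of immune cells, had medians of 56.1 CPM in control and 32.3 in leucine-free livers at day 1, and of 43.1 and 20.2 at day 8. The diets overlapped at day 1 and did not at day 8, where control livers had 43.1, 40.0, 45.5, 30.6 and 46.2 CPM and leucine-free livers 16.8 to 22.5. Its response was -0.66 ± 0.11 at day 1 and -1.06 ± 0.14 at day 8, with an interval of the difference of -0.77 to -0.03. H2-Q1, a class I histocompatibility gene with close paralogs, was -1.41 ± 0.22 and -2.13 ± 0.29. Srd5a1, steroid 5-alpha-reductase, was -1.13 ± 0.14 and -1.14 ± 0.18, and it was lower at day 8 in both diets, by -1.03 and -1.05. Ces2e, a carboxylesterase with close paralogs, was -1.32 ± 0.16 and -1.17 ± 0.21 and was likewise lower at day 8 in both diets.

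Of 34 measured cell cycle genes, 25 fell at day 1 and 6 fell at day 8 (10.7% and 2.48% of all genes). None of the 34 had a called difference (3 at an unadjusted p under 0.05, 1 in DESeq2). The median log2 fold change was -1.30 at day 1 and -0.83 at day 8. Mki67, a marker of dividing cells, had medians of 5.64 CPM in control and 1.39 in leucine-free livers at day 1 and of 2.89 and 0.964 at day 8. It fell by 1.97 ± 0.31 and by 1.60 ± 0.42 on the log2 scale, with an interval of the difference of -0.69 to 1.44, and it lost its day 8 call without control day 8 mouse 4 (adjusted p 0.0687). Ube2c, Top2a, Mcm5 and Prc1 were the other sustained genes of this list. Control livers were lower at day 8 than at day 1 in 5 of the 34.

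Interferon-responsive genes and interferon-inducible GTPases made up 12 of the 52 late genes, all lower at day 8. The GTPase list was chosen after the values were seen, so this count rests partly on a list taken from these data. The interferon-responsive list alone held 7 late genes of 33, where 0.249% of all genes tested were late and lower. Interferon signalling assembles the factor ISGF3, of which Irf9 is a part, on a DNA element, the interferon-stimulated response element (ISRE), in the promoters of antiviral genes. Of 33 measured interferon-responsive genes, 7 fell and 1 rose at day 1 (10.7% and 8.83% of all genes). At day 8, 27 fell (2.48% of all genes). The median log2 fold change was -0.22 at day 1 and -0.88 at day 8, and 7 genes had a called negative difference. These were Ifit1, Ifit2, Rsad2, Igtp, Irf9, Parp14 and Trim30a. Ifit2 lost this call in 18 of 23 alternatives (adjusted p up to 0.109), Parp14 in 5 (up to 0.113) and Irf9 in 3 (up to 0.0693). The day 8 call of Irf9 was lost in 9 alternatives (up to 0.103). Gbp3, Gbp7, Bst2, Isg15 and Dhx58 were sustained. The promoters of Ifit1, Rsad2 and Igtp are shown because each is late and holds the core of the ISRE, searched on both strands as GAAA, any 2 bases and GAAA again. They run from 250 bases before to 50 bases after the start of transcription, 5′ to 3′ on the strand of the gene, from RefSeq on GRCm38.p6, at chr19:34640639-34640938 (plus strand), chr12:26456403-26456702 (minus strand) and chr11:58199306-58199605 (plus strand). Capitals mark the ISRE letters on either strand.
Ifit1: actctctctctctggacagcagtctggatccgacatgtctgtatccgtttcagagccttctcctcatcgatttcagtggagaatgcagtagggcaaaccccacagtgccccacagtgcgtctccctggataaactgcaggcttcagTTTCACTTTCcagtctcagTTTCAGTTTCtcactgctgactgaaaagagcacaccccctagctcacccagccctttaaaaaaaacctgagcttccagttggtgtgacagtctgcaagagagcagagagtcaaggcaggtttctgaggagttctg
Rsad2: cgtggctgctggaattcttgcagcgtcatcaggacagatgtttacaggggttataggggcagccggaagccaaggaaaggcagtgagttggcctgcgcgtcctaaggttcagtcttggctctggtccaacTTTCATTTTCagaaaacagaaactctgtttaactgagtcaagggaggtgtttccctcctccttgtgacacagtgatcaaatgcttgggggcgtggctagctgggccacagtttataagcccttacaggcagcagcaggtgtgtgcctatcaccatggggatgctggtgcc
Igtp: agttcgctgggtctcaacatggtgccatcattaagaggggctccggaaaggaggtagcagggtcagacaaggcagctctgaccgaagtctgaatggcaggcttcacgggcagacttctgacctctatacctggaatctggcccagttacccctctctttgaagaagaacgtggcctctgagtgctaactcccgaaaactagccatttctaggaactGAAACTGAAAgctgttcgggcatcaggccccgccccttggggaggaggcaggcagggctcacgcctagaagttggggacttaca
The ISRE letters lie 104 and 85 bases before the start in Ifit1, 120 bases before it in Rsad2 and 34 bases before it in Igtp.

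Among the 40 late lower genes, 29 had such a window of 300 bases and 11 of these (37.9%) held the ISRE letters. They were Gbp5, Gm12250, Gm1966, Ifi203, Ifit1, Igtp, Irgm2, Rsad2, Slfn8, Tgtp1 and Trim30a. The letters were in 9 of 106 sustained lower genes (8.49%), in 1 of 60 transiently lower genes (1.67%) and in 3.99% of all genes with a window (3.44% of all windows). For the transiently lower genes, 2 further motifs were searched on both strands. The sterol regulatory element TCACNCCAC was in none of the 60 windows (1.44% of all genes), and the C/EBP-ATF response element TGATGNAA was in 4 of them (4.51% of all genes). These matches are descriptions of the letters in the windows.

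Ifit1 (chr19:34640871-34650009), which binds viral RNA, had 4.94, 11.4 and 15.1 CPM (lowest, median, highest) in control livers at day 1 and 4.12, 8.16 and 14.2 in leucine-free livers. In the day 8 groups, control livers had 12.1, 18.8, 14.6, 16.0 and 14.8 CPM and leucine-free livers 3.40, 4.10 and 7.08. The diets overlapped at day 1 and were apart at day 8. Its response was -0.27 ± 0.22 at day 1 and -1.78 ± 0.29 at day 8, with a difference of -1.51 ± 0.37 (SE, adjusted p 0.0342). Rsad2 (viperin, an antiviral enzyme) was 0.03 ± 0.23 and -1.53 ± 0.29, with a difference of -1.56 ± 0.37 (adjusted p 0.0293). The call was lost in 11 of 23 alternatives for Ifit1 (adjusted p up to 0.109) and in 8 for Rsad2 (up to 0.0819), those without control day 8 mouse 2 or 4 among them.

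The interferon-inducible GTPases, which attack membranes around intracellular parasites, fell with them. The 15 measured are a list chosen after the values were seen. Of these, 2 fell at day 1 and 14 at day 8 (10.7% and 2.48% of all genes). Their median log2 fold changes were -0.04 and -0.83, and 6 were late. Without control day 8 mouse 2, 1 of the 15 was called for the difference. Iigp1 had 224, 290 and 371 CPM (lowest, median, highest) in control livers at day 1 and 284, 329 and 422 in leucine-free livers. At day 8, control livers had 404, 411, 304, 307 and 360 CPM and leucine-free livers 185, 211 and 294. The diets overlapped at day 1, and at day 8 every leucine-free liver lay below every control liver. The difference was -0.91 ± 0.17 (SE, adjusted p 0.00783), called in each of the 23 alternatives. Igtp had a difference of -0.84 ± 0.19 (adjusted p 0.0206) and Irgm2, which overlaps it on chromosome 11, -0.69 ± 0.15 (adjusted p 0.0186). Without control day 8 mouse 2 the adjusted p was 0.0619 and 0.054, and in the fit of all 67 libraries 0.105 and 0.0762. Reads of Igtp and Irgm2, and of Tgtp1 and its near copy, may be shared or split by the counting.

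Macrophage markers moved in the same direction as the interferon genes. Of 14 Kupffer cell and macrophage markers, none was called at day 1 and 4 fell at day 8 (19.5% and 2.48% of all genes). Their median log2 fold changes were 0.14 and -0.78, with no called difference (12 at an unadjusted p under 0.05, 5 in DESeq2). Their summed level was 580 to 943 CPM in control and 280 to 1249 in leucine-free livers at day 1, and 844 to 1111 and 414 to 773 at day 8, where the diets did not overlap. None of the 14 was at 0 over the libraries. Clec4f, a receptor of Kupffer cells, fell by 0.78 ± 0.22 at day 8 on the log2 scale (adjusted p 0.0338), and Timd4, which binds dying cells, by 0.94 ± 0.25 (adjusted p 0.0275). These day 8 calls were lost in 11 alternatives for Clec4f (adjusted p up to 0.0841) and in 6 for Timd4 (up to 0.076). Of 13 lymphocyte markers 1 fell at day 8, where 2.48% of all genes fell. Their summed level was 9.85 to 20.5 CPM in control and 5.26 to 9.86 in leucine-free livers at that day. The part of these cells in the interferon result was not tested.

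The number of interferon-responsive genes called for the difference depended on single libraries and on the day 1 groups. Of the 33 genes, none was called without control day 8 mouse 2, 1 without leucine-free day 8 mouse 1, 2 without leucine-free day 8 mouse 3, and 3 each without control day 8 mouse 4 and leucine-free day 8 mouse 4. Without control day 8 mouse 5 it was 4. With the day 1 groups cut to the sizes of day 8, 1 was called, and with the mouse number as a block 2. The list median of the difference stayed below 0 in each of these fits (-0.49 with the day 1 groups cut, against -0.66), and 22 to 29 of the 33 genes were called lower at day 8.

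Outside the interferon genes, the late lower class held Sult5a1, Irf5 and Lifr. Sult5a1 (chr8:123140192-123158315), a sulfotransferase, had 6.37, 8.65 and 14.9 CPM (lowest, median, highest) in control livers at day 1 and 4.66, 7.24 and 14.4 in leucine-free livers. Among the day 8 mice, control livers had 9.98, 9.49, 14.7, 6.08 and 7.54 CPM and leucine-free livers 1.78, 2.48 and 3.84. Control livers were level between the days, at 0.03 on the log2 scale, and leucine-free livers were lower at day 8 by -1.56. The difference was -1.58 ± 0.33 (SE, adjusted p 0.0161), lost only in the fit of all 67 libraries (adjusted p 0.063). Irf5, a transcription factor of macrophages, had -1.13 ± 0.23 (adjusted p 0.0139) and Lifr, the receptor of leukaemia inhibitory factor, -1.13 ± 0.27 (adjusted p 0.0342), lost in 9 of 23 alternatives (up to 0.096). Slco1a1, an organic anion transporter, had the largest late fall, -4.41 ± 1.13 (adjusted p 0.0492). Its control livers at day 8 had 239, 14.0, 22.5, 4.31 and 21.3 CPM against 0.924 to 2.33 in leucine-free livers, and the call was lost in 14 of 23 alternatives (adjusted p up to 0.257).

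The late higher class held 12 genes. Soat2 (chr15:102150526-102163469), which esterifies cholesterol for storage and secretion, had 39.3, 43.7 and 59.1 CPM (lowest, median, highest) in control livers at day 1 and 30.2, 48.9 and 62.5 in leucine-free livers. After 8 days, control livers had 55.3, 41.1, 43.5, 35.1 and 53.4 CPM and leucine-free livers 71.5, 92.1 and 98.0. Only the leucine-free livers of day 8 stood apart. The response was 0.07 ± 0.11 at day 1 and 0.93 ± 0.14 at day 8, with a difference of 0.86 ± 0.18 (SE, adjusted p 0.0164). Trmu, which modifies mitochondrial transfer RNAs, had a difference of 0.62 ± 0.12 (adjusted p 0.0139). Soat2 and Trmu kept their calls in each of the 23 alternatives. Sars had 0.48 ± 0.11 (adjusted p 0.0209), Coasy, which makes coenzyme A, 0.51 ± 0.12 (adjusted p 0.0259), Eef1g, a subunit of elongation factor 1, 0.34 ± 0.08 (adjusted p 0.0296) and the ribosomal protein gene Rpl27 0.40 ± 0.10 (adjusted p 0.0349). These 4 lost their difference calls in 4 to 9 of the 23 alternatives, each without control day 8 mouse 2. A late gene also needs its day 8 call. Eef1g lost that call in 13 of 24 alternatives (adjusted p up to 0.199) and Rpl27 in 4 (up to 0.062). Sars and Coasy kept it in all 24.

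Switching genes were called at both days in opposite directions. H2-Eb1, H2-Ab1 and Cd74, which build and load class II histocompatibility molecules on antigen-presenting cells, were higher on leucine-free food at day 1 and lower at day 8. H2-Eb1 had 11.1, 17.5 and 20.2 CPM (lowest, median, highest) in control livers at day 1 and 10.8, 24.0 and 33.5 in leucine-free livers. In the 5 control livers of day 8 it had 27.9, 35.0, 25.2, 40.3 and 23.7 CPM, all above every control liver of day 1, and in leucine-free livers 13.1, 17.8 and 22.7. The diets overlapped at day 1 and were apart at day 8. Its response was 0.57 ± 0.17 at day 1 (adjusted p 0.0163) and -0.76 ± 0.21 at day 8 (adjusted p 0.0328), with a difference of -1.33 ± 0.27 (adjusted p 0.0154). Cd74 had a difference of -1.35 ± 0.29 (adjusted p 0.0205) and H2-Ab1 -1.30 ± 0.30 (adjusted p 0.0236). The day 8 call was lost in 10 alternatives for H2-Eb1 (adjusted p up to 0.139), 12 for Cd74 (up to 0.116) and 13 for H2-Ab1 (up to 0.144). In the same order, the day 1 call was lost in 2 (up to 0.111), 7 (up to 0.201) and 15 (up to 0.203). The difference lost its call in 1 alternative for H2-Eb1, 2 for Cd74 (both up to 0.063) and 8 for H2-Ab1 (up to 0.0755). H2-Aa, their partner, had a called difference only. Of all 16 antigen presentation genes, 4 rose and 4 fell at day 1 (8.83% and 10.7% of all genes). At day 8, 6 fell (2.48% of all genes). Class II genes are also markers of the antigen-presenting cells described above, whose part was not tested.

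Psat1, the serine synthesis enzyme phosphoserine aminotransferase, switched the other way. It had 1.49, 2.45 and 4.76 CPM (lowest, median, highest) in control livers at day 1 and 0.587, 1.46 and 2.80 in leucine-free livers. In the day 8 groups, control livers had 1.25, 0.239, 0.494, 0.705 and 0.624 CPM, all below every day 1 control, and leucine-free livers had 0.746, 1.79 and 4.49. Its response was -0.93 ± 0.33 at day 1 and 1.60 ± 0.46 at day 8, with a difference of 2.54 ± 0.56 (SE, adjusted p 0.0206), lost without control day 8 mouse 2 (adjusted p 0.054). Its day 8 call was lost in 10 alternatives (adjusted p up to 0.106) and its day 1 call in 4 (up to 0.124). Hmgn5, a nucleosome-binding protein, was -0.42 ± 0.07 and 0.34 ± 0.10, with a difference of 0.76 ± 0.12 (adjusted p 0.00365). Elob, elongin B, and Vars, valyl-tRNA synthetase, were lower at day 1 by smaller amounts and higher at day 8, with differences of 0.41 ± 0.08 and 0.46 ± 0.10. Mug1, a secreted protease inhibitor with close paralogs, was 0.41 ± 0.14 and -0.78 ± 0.18, with a difference of -1.19 ± 0.23 (adjusted p 0.0135), and Arel1, a ubiquitin ligase, had -0.51 ± 0.10 (adjusted p 0.0139). The differences of Hmgn5, Elob, Mug1 and Arel1 held in each of the 23 alternatives, but their calls at single days did not. The day 8 call was lost in 9 of 24 alternatives for Hmgn5 (adjusted p up to 0.09), in 18 for Elob (up to 0.158) and in 14 for Vars (up to 0.138). The day 1 call was lost in 5 for Mug1 (up to 0.136), in 4 for Arel1 (up to 0.0813) and in 5 for Vars (up to 0.179).

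**Figure D4:**
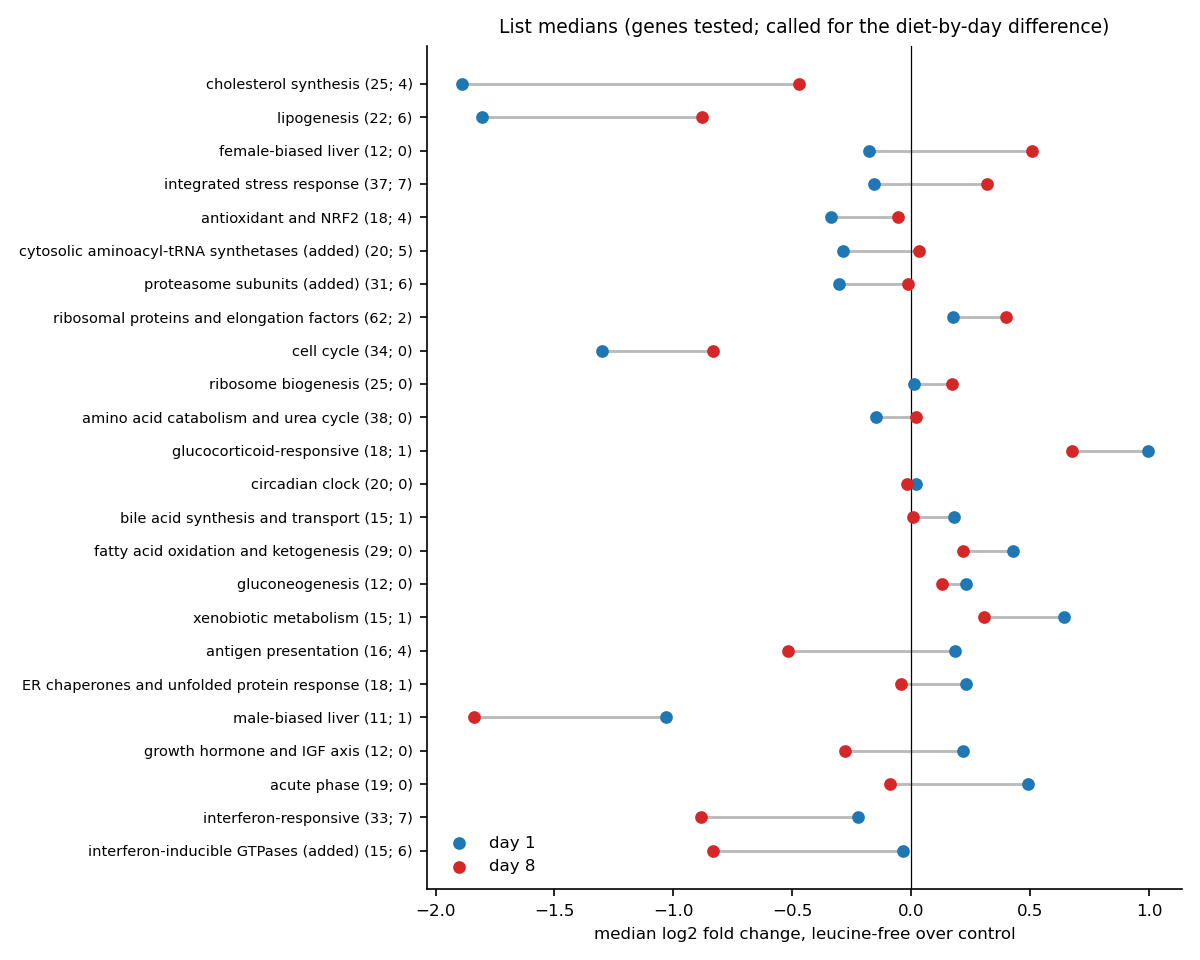
Median log2 fold change of leucine-free over control livers at day 1 (blue) and day 8 (red) for 24 gene lists, with the number of genes tested and of genes called for the difference in brackets. Cholesterol synthesis moves from -1.89 to -0.47, and interferon-responsive genes move from -0.22 to -0.88. Lists marked as added were chosen after the values were seen.

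Other lists had few or no genes called for the difference. Of all genes tested, 8.83% rose and 10.7% fell at day 1, and 2.49% rose and 2.48% fell at day 8. A called difference was found in 1.15%. Of 29 fatty acid oxidation genes, 15 rose at day 1 and 3 at day 8, none had a called difference, and leucine-free livers were lower at day 8 than at day 1 in 7. Of 18 glucocorticoid-responsive genes, 6 rose at day 1 and 1 at day 8, and 1, Mt2, had a called difference. Of 18 endoplasmic reticulum chaperone genes, 3 rose at day 1 and none was called at day 8, and Derl3 had a called difference. Of 15 bile acid genes, 4 rose and 1 fell at day 1 and none was called at day 8, and Slc27a5 had a called difference (-0.62 ± 0.14, adjusted p 0.0214). Of 19 acute phase genes, 4 rose at day 1 and 2 at day 8. Gluconeogenesis (12 genes), amino acid catabolism (38), ribosome biogenesis (25), the growth hormone axis (12), female-biased genes (12) and the circadian clock (20) had none called for the difference. At an unadjusted p under 0.05 these lists held 2, 7, 1, 1, 1 and 1 genes, and DESeq2 called 1 gene, of gluconeogenesis. Of 11 male-biased genes, 1 fell at day 1, which is near the share over all genes, and 3 fell at day 8. Slco1a1 of this list had a called difference.

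Regulators of the leucine response and of growth had no called difference. Sesn2, a leucine sensor, was 0.16 ± 0.12 at day 1 and 0.15 ± 0.15 at day 8, with an interval of the difference of -0.39 to 0.37. Sesn1 fell by 0.39 ± 0.11 at day 1 on the log2 scale and was -0.17 ± 0.14 at day 8. Ddit4, an mTORC1 inhibitor, was -1.02 ± 0.45 and 1.11 ± 0.60, with a difference of 2.13 ± 0.76 (adjusted p 0.151). Igf1, a growth factor that the liver secretes, was -0.12 ± 0.12 and -0.42 ± 0.16, and Ghr, the growth hormone receptor, -0.24 ± 0.10 and -0.40 ± 0.13. Clock genes varied widely within groups, and the labels give no collection time. Dbp, a clock output gene, ran from 2.82 to 104 CPM in control livers at day 1 and from 0.504 to 1.57 in leucine-free livers at day 8, and its difference was -3.25 ± 1.44 (adjusted p 0.256).

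**Figure D5:**
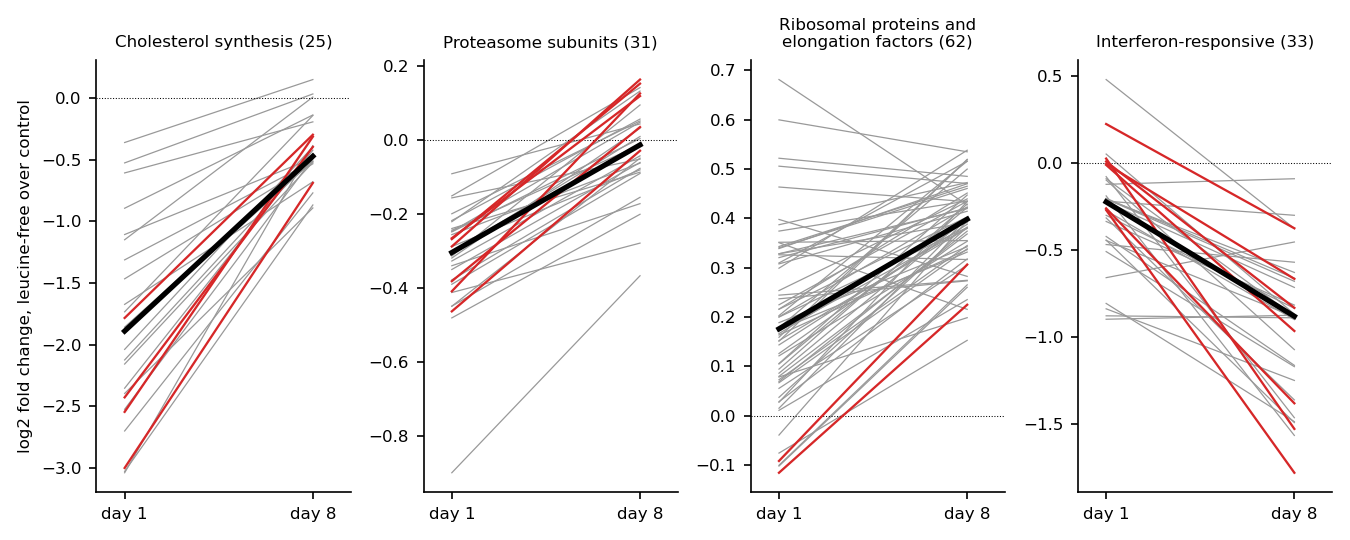
Log2 fold change of leucine-free over control livers at day 1 and day 8 for each gene of 4 lists (y axes differ), with called differences in red and the list median in black. All 25 cholesterol synthesis genes and all 31 proteasome subunits have a higher value at day 8 than at day 1, 7 interferon-responsive genes have a called downward difference, and the ribosomal list moves from a median of 0.18 to 0.40.

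The 37 DKO livers, which share no library with the WT mice, were set beside this result in a fit of all 67 libraries. There the difference between day 8 and day 1 was called for 1370 genes in DKO mice and for 231 in WT mice. Of the 185 WT genes above, 178 (96.2%) had the same sign in DKO livers, against 67.7% of all genes. In the same direction, 103 were called (55.7% of the WT genes and 7.52% of the DKO genes), and none in the opposite direction, where 4.93% of all genes were called higher and 3.18% lower in DKO livers. The test of WT minus DKO called 1 gene of 16908, the cell division gene Cdca3, with 1019 at an unadjusted p under 0.05. Cdca3 differed between the days by 0.52 ± 0.36 in WT and by 3.13 ± 0.35 in DKO livers. Soat2 had a difference of 0.86 ± 0.18 in WT and 0.74 ± 0.17 in DKO livers, Hmgn5 0.76 ± 0.13 and 0.86 ± 0.12, and Ifit1 -1.51 ± 0.39 and -1.65 ± 0.38. Acacb had 1.59 ± 0.38 in WT and -0.30 ± 0.36 in DKO livers, and their difference of 1.89 ± 0.52 was not called (adjusted p 0.277).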

How the data were processed

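RNA-seq of whole liver was analysed from the authors' deposited raw read counts per gene and sample. Per the submitters' processing notes, STAR 2.7.1a, featureCounts 2.0.1 and DESeq2 1.26.0 were used with GRCm38 (mm10). Their roles and the strand setting are not given in the sources used here. The deposited counts summed to between 22814668 and 56916009 per WT library.

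From the counts, 16079 of 55450 genes passed filterByExpr, and edgeR 4.0.16 (R 4.3.3) fitted 1 quasi-likelihood model to the 30 WT libraries in 4 groups, with TMM scaling and robust dispersions. Contrasts were the diet response at each day, their difference, and the change over time in each diet. P-values were adjusted by the Benjamini-Hochberg method over all genes tested, and a gene was called at an adjusted p under 0.05. Fold changes are log2, their errors are SE, and CPM uses TMM-scaled library sizes. Replicates are separately numbered mice, and p-values measure the spread between these samples.

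Named genes were the 12 largest positive and negative called differences with a mean of at least 5 CPM in a group, the 6 with the smallest adjusted p of each class and direction, the 3 leading called genes of each list, and a set of index genes. Vars, Mug1, Arel1, Hmgn5, Elob, Aldh1l2, Mthfd2, Iigp1, Irgm2, Psmb6, Psmc1, Clec4f, Timd4, Mars and the genes named only as list or class members were chosen after their values were seen. The members, lists and tests were chosen with earlier results of these data known. Alternatives were DESeq2 1.42.0, limma 3.58.1 (voom), 2 surrogate variables (sva 3.50.0), other scalings, filters, sample sets, a stricter threshold and single libraries left out. Scripts were tested on simulated data. No library looked like a copy of another (lowest chi-square per degree of freedom 23.0 over 112 pairs within groups). A few index genes are not reported here.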

Additional observations from a re-analysis of the deposited data

Results flagged for a closer look

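Among 330 groups of 4 to 10 mice examined for the genes named, 23 had 1 mouse far from the rest, where 1 in 20 groups by chance would give 16.5. Control day 1 mouse 4 accounted for 10 of them. Some were lipid synthesis genes, which were low in this mouse beside the other 6 controls of that day. It had 62.7 CPM of Lss, 67.9 of Nsdhl, 53.6 of Pmvk, 54.5 of Acat2, 40.2 of Sqle and 260 of Acss2. The mouse also stood apart in genes outside lipid synthesis, with 61.7 CPM of Rdh11, 7.68 of Chrna4, 57.1 of Vkorc1 and 19.0 of Nr1d1. Leucine-free day 8 mouse 6 stood apart in 4 interferon-responsive genes, with 7.08 CPM of Ifit1, 7.81 of Rsad2, 14.1 of Gbp3 and 41.1 of Irf7. Control day 8 mouse 1 had 787 CPM of Hrg and 708 of Agt.

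Single values stood apart in the other 7. These were Fetub in leucine-free day 8 mouse 1 (527 CPM), Vkorc1 in control day 8 mouse 4 (63.8 CPM), Soat2 in control day 1 mouse 2 (59.1 CPM), Bola1 in leucine-free day 8 mouse 3 (24.5 CPM), Pgd in control day 8 mouse 3 (75.9 CPM), Fgf21 in control day 1 mouse 5 (7.93 CPM) and Sesn1 in leucine-free day 8 mouse 4 (10.2 CPM).

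For 9 genes the diet response was called in opposite directions at the 2 days, and the test of the difference was called as well. The difference (log2, day 8 minus day 1) was 0.76 for Hmgn5, 0.41 for Elob, 0.46 for Vars and 2.54 for Psat1. It was -1.19 for Mug1, -0.51 for Arel1, -1.33 for H2-Eb1, -1.35 for Cd74 and -1.30 for H2-Ab1.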

How the results depend on the processing

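The number of genes called for the difference, 185, was within 1.5 times its value under DESeq2 size factors (180), total counts (221), a mean of at least 1 CPM (250), all 67 libraries (231), the day 1 groups cut to the sizes of day 8 (206) and without leucine-free day 1 mice 11 and 12 (242). DESeq2 called 562 (185 shared) and limma voom 599 (180 shared). In DESeq2, day 8 had 1238 calls, control livers over time 1075, transient genes 282 and late genes 188. In voom, day 8 had 1919, control livers 1682, leucine-free livers 2102, transient 322, sustained 725 and late 193. With 2 surrogate variables the difference had 317, day 8 1305, control livers 1084, leucine-free livers 2074, transient 198 and sustained 690. With no filter on low counts the difference had 95, day 8 491, control livers 359, leucine-free livers 770, transient 62, sustained 224 and late 26. With the day 1 groups cut, control livers had 415, leucine-free livers 1804 and late 31. At an adjusted p under 0.01 the difference had 12, day 1 1759, day 8 257, control livers 164, leucine-free livers 400, transient 11, sustained 126 and late 1. Fitting only the groups compared, day 8 had 1506. The cause of these shifts was not tested.

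Mouse numbers were not treated as pairs in the main fit. Same-numbered mice of different groups had residual correlations of -0.142 to 0.293, and 7 of 34 pairs were over 0.1. Between the 2 diets of day 1, mice 1 to 7 had -0.064, 0.062, 0.176, 0.225, -0.108, 0.207 and 0.162. Differently numbered mice were not set beside these values, so they cannot show whether the numbers pair the samples. With the mouse number as a replicate block, the difference had 344 calls (142 shared), leucine-free livers over time 1754 and transient genes 251.

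Leaving out 1 of 12 libraries (all 11 of day 8, and control day 1 mouse 4, chosen after seeing the data) gave 62 to 267 genes for the difference, 3027 to 3345 at day 1, 505 to 825 at day 8, 287 to 822 for control livers, 745 to 1193 for leucine-free livers, 44 to 167 transient, 253 to 365 sustained and 13 to 61 late. The difference fell to 62 without control day 8 mouse 2, to 107 without mouse 4, and to 91 and 104 without leucine-free day 8 mice 1 and 3. Late genes numbered 32 and 30 without leucine-free day 8 mice 2 and 4. Control livers had 418 without control day 8 mouse 1. Among the named genes, leaving out leucine-free day 1 mice 11 and 12 ended the day 1 calls of Cd74 and H2-Ab1. It also ended the difference call of Ifit2. Leaving out control day 1 mouse 4 ended the difference calls of Slco1a1, Gbp10, Ccni, Ifit2 and Aldh1l2. The day 1 calls of Mug1 and Arel1 and the day 8 calls of Vars and Elob were also lost without that mouse. No called value changed sign, though values that were not called did, such as the Fgf21 difference (-0.35 to 1.24). Of the difference calls, 49.2% were positive without control day 8 mouse 5, against 54.1%. Of 71 named genes called for the difference, 23 were called in every alternative at the same threshold, and 41 lost the call without control day 8 mouse 2. With total counts, 36.4% of day 8 calls were higher, against 50.1%, and 35.8% of day 1 calls, against 45.3%.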
